A study of Mus musculus with 6 samples.

Results

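Primitive erythroid cells are the first red blood cells of the embryo, and the genes described here are 9 that mark them or build them. They comprise the embryonic globin genes Hba-x, Hbb-y and Hbb-bh1, the receptor genes Epor and Tfrc, the transcription factor genes Klf1, Gfi1b and Nfe2, and the red cell skeleton gene Epb42. Probe sets were taken where the platform annotation gave exactly one of these symbols. This gave 19 of the 45101 probe sets of the array, for 9 of the 18193 genes with a single symbol. Of the 19, 16 entered the test, and the other 3 are Affymetrix control probe sets for Tfrc, which are given as values only.

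The arrays profiled total RNA of Flk1-positive cells from the mouse ES cell line ER71 A17C, of 129P2/Ola background, which carries a doxycycline-inducible Etv2 cassette. In the 3 induced samples, doxycycline at 0.5 microg/ml was present from day 3 of hanging-drop differentiation for 12 hours, and the 3 control samples were left untreated, as the design text states. Both groups carry the cassette, come from this single line, and were sorted on Flk1 at day 3.5. Groups follow the titles, because the treatment entry names doxycycline for every sample, controls included. A doxycycline-treated line without the cassette was not analysed here, so actions of Etv2 and of doxycycline alone cannot be told apart. No label says whether replicates were separate cultures, so the spread behind each p-value may be technical.

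Primitive erythroid cells arise in the blood islands of the yolk sac from mesoderm that expresses Flk1, and Etv2 is an ETS transcription factor needed for that mesoderm to give blood and endothelium. The cells then switch on Gata1 and Klf1, fill with embryonic haemoglobin made of zeta-like alpha chains and epsilon-y and beta-h1 beta chains, and take up iron through the transferrin receptor. Adult beta-globins take over later. In mouse, Hba-x lies in the alpha-globin cluster on chromosome 11, while Hbb-y and Hbb-bh1 are neighbours in the beta-globin cluster on chromosome 7.

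The stretches just before the transcription start of Hba-x, Hbb-y and Epor are shown because erythroid factors of the GATA and Klf families are known to act through short words near such starts. Each line gives 250 bases of the RefSeq sequence (GRCm38.p6), 5′ to 3′ in the direction of the gene and ending at the base before its start. Hba-x is at chr11:32276350-32276599 on the plus strand, Hbb-y at chr7:103853208-103853457 on the minus strand, and Epor at chr9:21963577-21963826 on the minus strand. Capitals mark the GATA word, which is AGATAA or the same word with T as its first or G as its last letter, the CACCC-box word CCACCC, the CCAAT box and the TATA-type word ATAAA, each searched on both strands.
Hba-x: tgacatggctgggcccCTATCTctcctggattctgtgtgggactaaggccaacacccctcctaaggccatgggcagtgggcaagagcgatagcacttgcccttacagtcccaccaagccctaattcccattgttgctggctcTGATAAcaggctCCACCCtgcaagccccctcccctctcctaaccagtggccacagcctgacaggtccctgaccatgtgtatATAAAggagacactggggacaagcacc
Hbb-y: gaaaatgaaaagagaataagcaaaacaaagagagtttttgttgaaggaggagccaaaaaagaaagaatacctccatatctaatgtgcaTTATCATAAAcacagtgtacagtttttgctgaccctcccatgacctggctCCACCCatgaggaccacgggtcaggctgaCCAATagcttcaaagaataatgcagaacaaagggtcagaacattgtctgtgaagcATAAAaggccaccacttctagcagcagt
Epor: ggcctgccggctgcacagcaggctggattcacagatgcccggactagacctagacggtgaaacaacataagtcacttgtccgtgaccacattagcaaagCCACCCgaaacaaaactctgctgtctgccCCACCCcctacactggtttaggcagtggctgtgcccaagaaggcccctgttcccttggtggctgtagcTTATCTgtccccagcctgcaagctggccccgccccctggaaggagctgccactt
In the Hba-x stretch a GATA word on the plus strand began 108 bases before the start, with CCACCC at 96 and ATAAA at 27. A further GATA word lay on the minus strand, beginning at 234. In the Hbb-y stretch CCACCC began at 112, CCAAT at 83 and ATAAA at 28, while the GATA word at 162, on the minus strand, overlapped another ATAAA. The Epor stretch held a minus-strand GATA word at 54 and CCACCC at 151 and 122, with neither CCAAT nor ATAAA.

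The RefSeq table used here gave promoter entries for 7 of the 9 genes, all but Hbb-bh1 and Nfe2, and 8 entries in all, with 2 for Tfrc. Among these 8 entries a GATA word occurred in 6, against 26.5% of all 32851 promoters of the same length, and CCACCC in 4, against 28.1%. CCAAT was found in 4 entries (33.8% of all promoters) and ATAAA in 3 (37.3%). The ETS-type word CCGGAA was found in 0 of the 8 entries and in 12.0% of all promoters. These matches are letters in a window of a C57BL/6J sequence, not binding sites. The words were chosen with the sequences in view, so the counts are a description and not a test of enrichment.

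The deposited values are log2 RMA levels, so a difference of 1 is a 2-fold difference. Levels of different probe sets are not set against each other, since each responds to its target in its own way. Detection calls were not analysed here, and whether a low level lies above background was not tested. The cassette gene Etv2 stood at 13.27, 13.28 and 13.36 in induced samples 1, 2 and 3, and at 9.92, 8.59 and 10.71 in control samples 1, 2 and 3, a log2 fold change of 3.56 ± 0.46 (SE) with no overlap. Its unadjusted p was 7.58e-05 and its adjusted p 0.9998 in limma, so it did not pass the test. Kdr, which encodes Flk1 and so checks the sort, read 9.56, 9.36 and 10.52 in induced samples and 10.02, 8.40 and 10.97 in control samples. The 6 array medians lay between 7.34 and 7.40, with induced 2 the highest. Control 3 had the largest 3′ minus 5′ signal for the control transcripts Actb and Gapdh, at 0.60 and 0.32, against at most 0.34 and 0.10 on any other array. For Tfrc it had the smallest, at 2.00, against 2.15 to 2.46 on the other arrays. Mesoderm markers had a mean level over 11 genes of 10.56 to 10.96 in induced samples and 10.11 to 11.21 in control samples, and the primitive streak gene Mixl1 averaged 13.48 ± 0.12 in induced and 13.47 ± 0.29 in control samples (SD, n = 3 each).

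Between induced and control cells the erythroid genes showed no change that passed the test. Of the 16 probe sets, 0 passed an adjusted p of 0.05 in limma, where 1 of all 45037 probe sets did (0.00222%), that of Hprt. The cassette gene Etv2 did not pass either, so a count of 0 does not exclude changes in the erythroid genes. At an unadjusted p under 0.05 the count was also 0 of 16, against 1.53% of all probe sets. Induced samples lay wholly above control samples in 1 probe set (2.72% of all probe sets), that of Nfe2, and wholly below them in 1 (3.70%), an Hbb-y probe set. The other 14 overlapped. With the replicate number as a block, 0 of 16 and 0 of all probe sets (0.00%) passed.

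The directions were split, with 9 probe sets higher and 7 lower in induced samples. When each array was centred on its median, 6 were higher and 10 lower. With array weights the split was 5 and 11, and without induced 2 it was 4 and 12. The median log2 fold change, induced minus control, was 0.011, beside 0.0029 over all probe sets. For 14 of the 16, the 95% interval of the difference lay within a 2-fold change either way, and the exceptions are 2 probe sets of Hbb-y. Of the 16, 11 had a mean level below the median over all probe sets, 7.35, and 6 below the lower quartile, 5.99. Whether these lay above background was not tested, so the intervals bound measured signal and not RNA. Standard errors lay between 0.082 for Klf1 and 0.56 for Hbb-y. In a sorted population such as this, fewer cells of a type and less RNA per cell cannot be told apart.

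**Figure D1:**
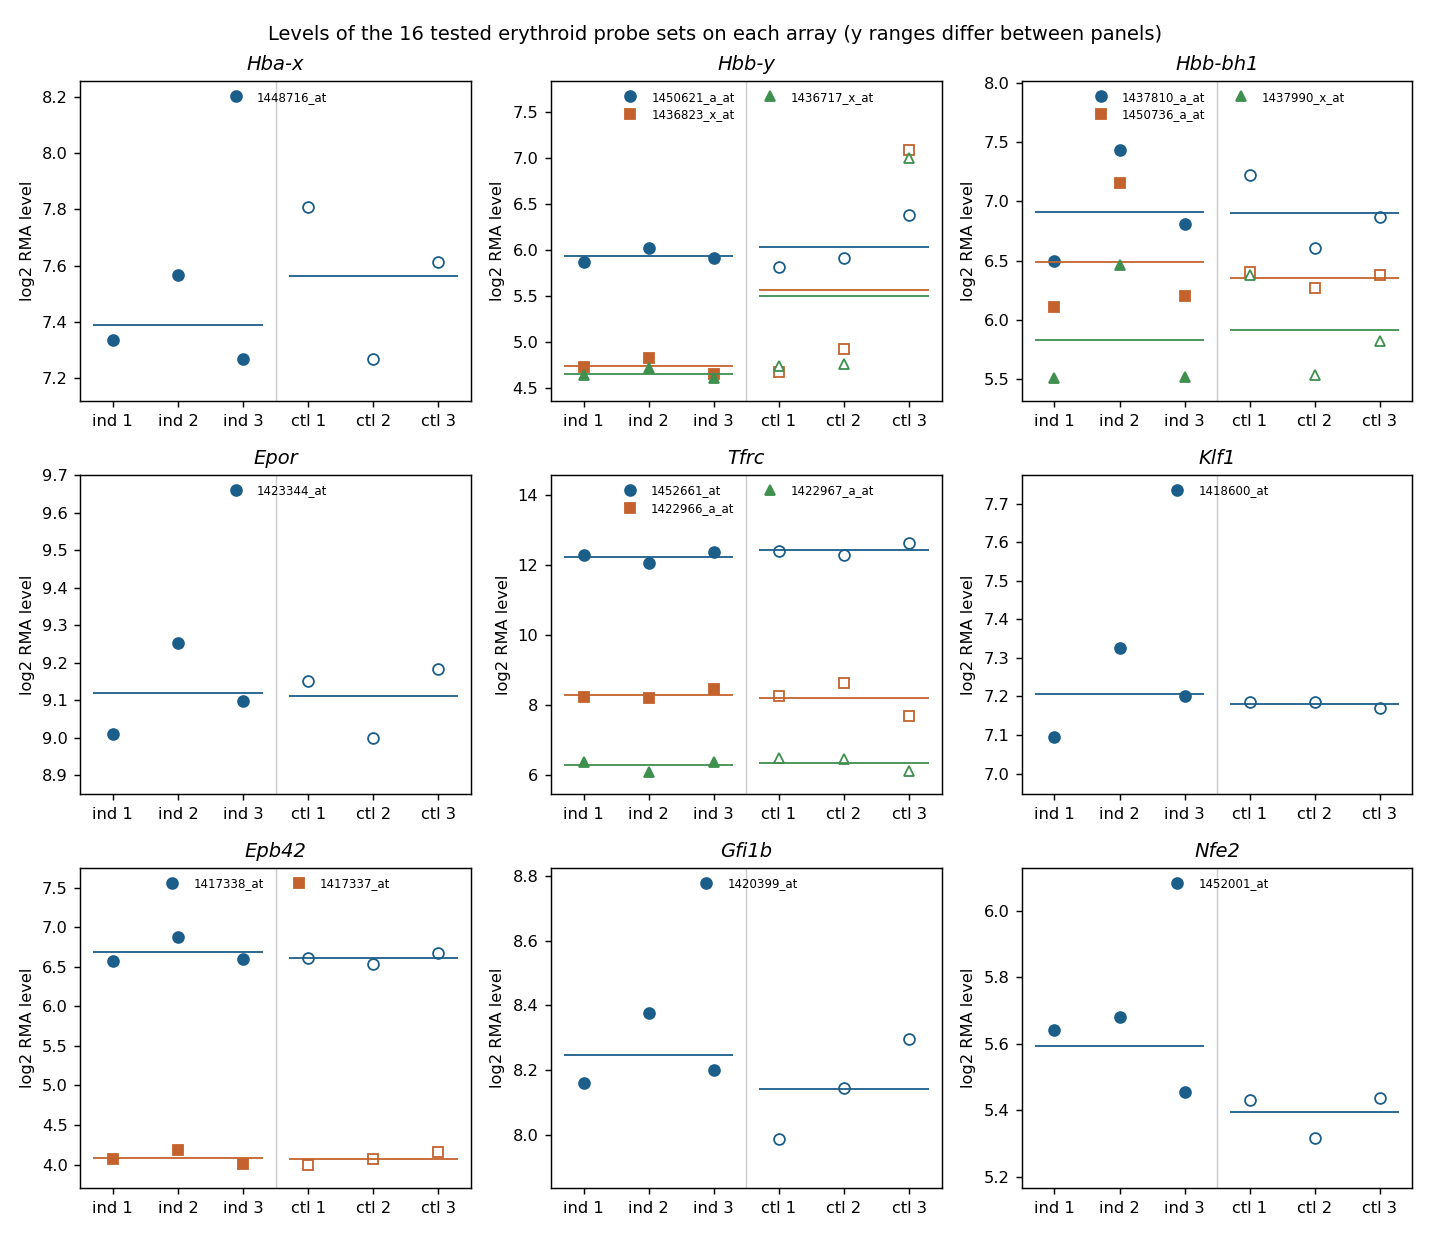
Log2 RMA level (y axis, with a range of its own in each panel) of the 16 tested probe sets on the 6 arrays (x axis). Filled symbols are induced (ind) and open symbols control (ctl) samples, lines are group means, and symbol shapes separate probe sets of a gene. The Hbb-y panel shows control 3 at 7.09 and 6.996 on the x_at probe sets, whose other 5 arrays stay at or below 4.92.

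Hba-x encodes the zeta-like embryonic alpha-globin chain. Its only probe set, 1448716_at, read 7.33, 7.57 and 7.27 in induced samples and 7.81, 7.27 and 7.61 in control samples. Control 1 and control 3 were the highest, induced 3 and control 2 the lowest, and the groups overlapped. The log2 fold change was -0.17 ± 0.15 (SE), with a 95% interval from -0.52 to 0.17 and an adjusted p of 0.9998 in limma. It was -0.051 without control 1 and -0.32 without control 2.

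Hbb-y encodes the epsilon-y embryonic beta-globin chain, and its 3 probe sets were set apart by a single array. Probe set 1436717_x_at read 4.65, 4.73 and 4.61 in induced samples, and 4.75, 4.76 and 6.996 in control samples. Probe set 1436823_x_at read 4.73, 4.83 and 4.66 in induced samples, and 4.68, 4.92 and 7.09 in control samples. Control 3 alone was high on both, and the 5 other arrays lay close together. Probe set 1450621_a_at read 5.87, 6.02 and 5.91 in induced samples, and 5.82, 5.91 and 6.38 in control samples. Here too control 3 was the highest, by less. The suffix x_at marks probe sets with probes that may also match other transcripts, and the single probes behind these values were not analysed here.

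Control 3 exceeded the mean of the other 5 arrays by 2.32 on 1436823_x_at and 2.297 on 1436717_x_at, or 5.01-fold and 4.91-fold in measured signal. Whether the other arrays lay above background on these probe sets was not tested, so the fold in RNA may be larger. The SDs of those other arrays were 0.11 and 0.066. On 1450621_a_at the excess was 0.47, or 1.39-fold, with an SD of 0.073. The levels of the 3 probe sets over the 6 arrays correlated at r = 0.95 to r = 1.00, which rests on control 3.

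**Figure D2:**
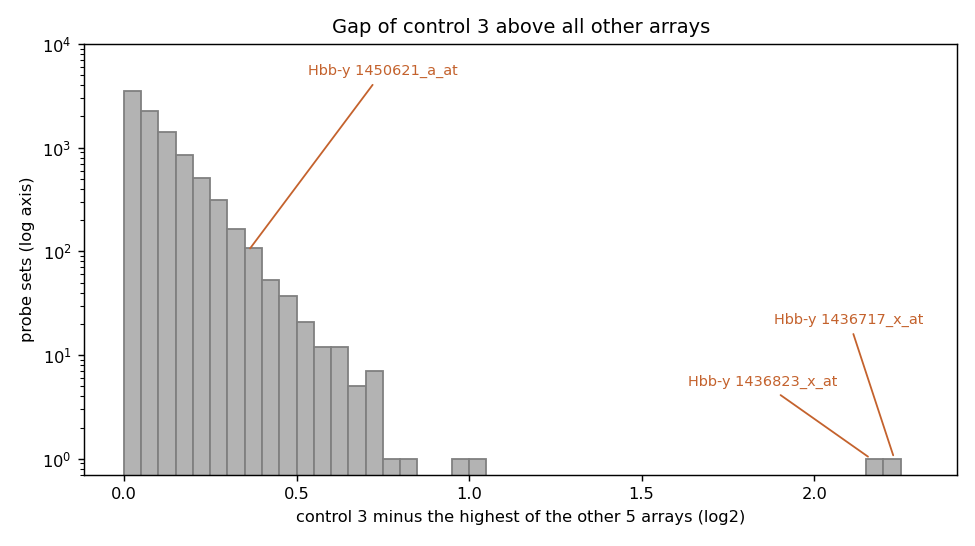
Number of probe sets (y axis, log scale) by the gap between control 3 and the highest of the other 5 arrays (x axis, log2), for the 9264 probe sets in which control 3 is the highest array. The 2 Hbb-y x_at probe sets lie at 2.16 and 2.23, apart from all other probe sets, and the third lies at 0.36.

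Set against the whole array, the gap between control 3 and the next-highest array was 2.23 for 1436717_x_at and 2.16 for 1436823_x_at, ranks 1 and 2 of 45037 probe sets. They also ranked 1 and 2 when the highest array of each probe set, whichever it was, was taken. The third Hbb-y probe set, with a gap of 0.36, ranked 238 in control 3. Among probe sets with 1 symbol outside the erythroid genes, the next gaps in control 3 were 1.02 for the chemokine receptor gene Cxcr4 and 0.98 for the protocadherin gene Pcdh19. Both were chosen after their values were seen. In the other direction control 3 lay 2.13 below the next-lowest array for the gap junction gene Gja1, also chosen after its values were seen.

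The Hbb-y result depended on that array. With all arrays the log2 fold change was -0.84 ± 0.55 (SE) for 1436717_x_at and -0.825 ± 0.56 for 1436823_x_at, with 95% intervals from -2.13 to 0.45 and from -2.14 to 0.49. Without control 3 these became -0.093 ± 0.084 and -0.063 ± 0.11, with intervals from -0.29 to 0.11 and from -0.32 to 0.20. For 1450621_a_at the value was -0.10 ± 0.15 with all arrays and 0.067 ± 0.090 without control 3. Adjusted p was 0.9998 for all 3 with all arrays, and 0.9918 without control 3, in limma.

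No other erythroid probe set had a gap of this size in control 3. Tfrc on 1452661_at was highest there, by 0.24, while Hba-x was second highest there and Hbb-bh1 was not highest. The adult beta-globin gene Hbb-b2 was highest in control 3 on 1427865_at, at 6.34, with 6.25 in induced 2 next. On 1427866_x_at it read 4.43, 4.46 and 4.48 in induced samples and 4.49, 4.49 and 4.49 in control samples. Alas2, the erythroid enzyme that starts haem synthesis, chosen as an erythroid marker after its values were seen, read 6.06, 6.17 and 5.97 in induced samples and 6.15, 6.09 and 6.14 in control samples. The 3′ minus 5′ signal was largest in control 3 for Actb and Gapdh and smallest there for Tfrc, and its part in the Hbb-y value was not tested.

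Hbb-bh1 encodes the beta-h1 chain, the other embryonic beta-like globin. Probe set 1437810_a_at read 6.498, 7.44 and 6.81 in induced samples, and 7.23, 6.61 and 6.87 in control samples. Probe set 1437990_x_at read 5.51, 6.46 and 5.52 in induced samples, and 6.38, 5.53 and 5.83 in control samples. Induced 2 and control 1 stood highest on both, 1 array from each group. Probe set 1450736_a_at read 6.11, 7.15 and 6.20 in induced samples, and 6.41, 6.27 and 6.38 in control samples, with induced 2 well above the rest.

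On all 3 Hbb-bh1 probe sets induced 2 was the highest array, control 1 the second and induced 1 the lowest. The mean of induced 2 and control 1 exceeded that of the other 4 arrays by 0.64 on 1437810_a_at, 0.54 on 1450736_a_at and 0.82 on 1437990_x_at. Both arrays were picked because they were the highest, so an excess was fixed in advance. On 1450736_a_at control 1 read 6.41, close to the next array at 6.38, so the excess there came mostly from induced 2. The 3 probe sets correlated over the 6 arrays at r = 0.81 to r = 0.95. They are annotated to a single gene, so this is no independent repeat of the pattern. As an x_at probe set, 1437990_x_at may also match other transcripts.

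Between the groups Hbb-bh1 differed by less than its spread. The log2 fold changes were 0.013 ± 0.25 (SE), 0.13 ± 0.26 and -0.081 ± 0.30 on 1437810_a_at, 1450736_a_at and 1437990_x_at, each with an adjusted p of 0.9998 in limma. Without induced 2 all 3 were negative, at -0.25 ± 0.19, -0.20 ± 0.078 and -0.40 ± 0.24. The value for 1450736_a_at then had an unadjusted p of 0.0423 and an adjusted p of 1.0000 in limma.

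The embryonic beta-globin genes did not vary together over the arrays. The probe sets with the highest mean, 1450621_a_at for Hbb-y and 1437810_a_at for Hbb-bh1, correlated at r = 0.061 over 6 arrays, while Hba-x and Hbb-bh1 correlated at r = 0.72. These are descriptions over arrays that share 1 experiment.

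The adult globin genes did not pass the test either. Among genes with a probe set of their own, 3 of the 13 other globin genes listed were measured, by 4 probe sets, of which 0 passed and 2 were higher and 2 lower in induced samples. Hba-a2, an adult alpha-globin gene, read 8.49, 8.85 and 8.42 in induced samples and 8.41, 8.54 and 8.47 in control samples. Hbb-b2 on 1427865_at read 6.14, 6.25 and 6.15 in induced samples and 6.15, 6.10 and 6.34 in control samples. A probe set shared by the adult beta-globin genes, 1417184_s_at, averaged 9.72 ± 0.12 in induced and 9.65 ± 0.084 in control samples (SD, n = 3 each). One shared by Hba-a1 and Hba-a2, 1452757_s_at, read 7.33, 7.73 and 7.298 in induced samples and 7.75, 7.304 and 7.82 in control samples. On it induced 2, control 1 and control 3 were the high arrays, as they were for Hba-x.

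**Figure D3:**
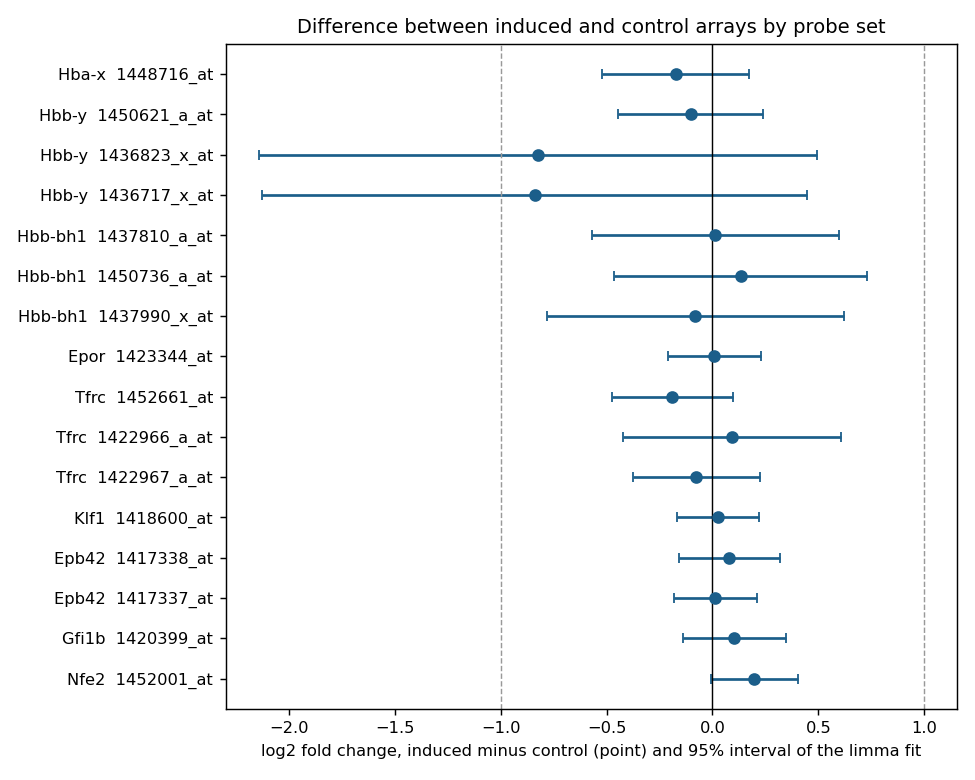
Log2 fold change, induced minus control (x axis), of the 16 tested probe sets (rows), with points for the limma estimate and bars for its 95% interval, and dashed lines at a 2-fold change. All 16 intervals include 0, and only the 2 Hbb-y x_at intervals reach past a 2-fold change.

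Epor encodes the erythropoietin receptor, through which erythroid precursors receive their survival signal. It read 9.01, 9.25 and 9.10 in induced samples and 9.15, 8.999 and 9.18 in control samples. Induced 2 was highest and control 2 lowest, and the groups overlapped throughout. The log2 fold change was 0.0087 ± 0.094 (SE), with a 95% interval from -0.21 to 0.23 and an adjusted p of 0.9998 in limma.

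Tfrc encodes the transferrin receptor, which brings iron into the cell, in erythroid cells and in most dividing cells. Its brightest probe set, 1452661_at, read 12.29, 12.05 and 12.37 in induced samples, and 12.38, 12.28 and 12.62 in control samples. Each induced sample was below the control sample of the same number, by differences of -0.095, -0.23 and -0.25, although the groups overlapped. The log2 fold change was -0.19 ± 0.12 (SE), with a 95% interval from -0.47 to 0.097. The unadjusted p was 0.164 in limma and 0.0608 with the replicate block, and the adjusted p was 0.9998 and 0.9997.

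The remaining Tfrc probe sets did not follow the first. Probe set 1422966_a_at read 8.22, 8.19 and 8.47 in induced samples, and 8.27, 8.64 and 7.70 in control samples, so control 3, the highest array on 1452661_at, was the lowest here. Its log2 fold change was 0.091 ± 0.22 (SE), and -0.16 ± 0.14 without control 3. Probe set 1422967_a_at read 6.37, 6.10 and 6.38 in induced samples, and 6.498, 6.47 and 6.12 in control samples, with a log2 fold change of -0.076 ± 0.13. Over the 6 arrays 1452661_at correlated with 1422966_a_at at r = -0.52 and with 1422967_a_at at r = 0.033, whereas those last correlated with each other at r = 0.72.

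The Affymetrix control probe sets for Tfrc cover its 3′ part, its middle and its 5′ part. The 3′ one read 7.32, 7.46 and 7.51 in induced samples and 7.375, 7.51 and 6.89 in control samples, again with control 3 the lowest. The 5′ one read 5.13, 5.13 and 5.05 in induced samples and 5.22, 5.13 and 4.89 in control samples. The middle one read 5.65, 5.54 and 5.73 in induced samples and 5.69, 5.63 and 5.60 in control samples. Control 3 was the lowest of the 6 arrays at both ends and not in the middle. Induced minus control differences were 0.17, 0.021 and -0.0021 for the 3′, 5′ and middle probe sets.

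Klf1 encodes the erythroid Krüppel-like factor, which binds CACCC words of globin genes. It read 7.10, 7.33 and 7.20 in induced samples and 7.19, 7.19 and 7.17 in control samples. The controls were almost equal, with an SD of 0.0085, and the induced samples lay on both sides of them. The log2 fold change was 0.026 ± 0.082 (SE), with a 95% interval from -0.17 to 0.22 and an adjusted p of 0.9998 in limma.

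Gfi1b encodes a zinc-finger repressor needed for red cell and platelet formation. It read 8.16, 8.37 and 8.20 in induced samples and 7.99, 8.14 and 8.29 in control samples. Control 1 was the lowest and induced 2 the highest, with overlap between the groups. The log2 fold change was 0.10 ± 0.10 (SE), with a 95% interval from -0.14 to 0.35.

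Nfe2 encodes the p45 subunit of NF-E2, a factor that acts at the globin control regions and in platelet formation. It read 5.64, 5.68 and 5.46 in induced samples and 5.43, 5.32 and 5.44 in control samples. All induced samples were above all control samples, although induced 3 and control 3 differed by only 0.020. The log2 fold change of 0.20 ± 0.088 (SE), with a 95% interval from -0.0075 to 0.40, had the smallest unadjusted p of the 16 probe sets, 0.0569, and an adjusted p of 0.9998 in limma.

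Epb42 encodes protein 4.2, which ties the red cell anion exchanger to the membrane skeleton. On 1417338_at it read 6.57, 6.88 and 6.60 in induced samples and 6.61, 6.53 and 6.67 in control samples. On 1417337_at it read 4.07, 4.19 and 4.003 in induced samples and 3.99, 4.07 and 4.16 in control samples. Induced 2 was the highest array on both, and the groups overlapped. The log2 fold changes were 0.080 ± 0.10 (SE) and 0.013 ± 0.084, each with an adjusted p of 0.9998 in limma.

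Induced 2 was the highest array for 9 of the 16 erythroid probe sets, against 31.9% of all probe sets. These were the 3 of Hbb-bh1, the 2 of Epb42, and those of Epor, Klf1, Gfi1b and Nfe2. Probe sets of a gene are not independent, so the count is not one of separate genes. Control 3 was highest for 4 (20.6% of all), control 1 for 2 (15.1%) and control 2 for 1 (15.3%), and neither induced 1 nor induced 3 was highest for any. After scaling, induced 2 was highest for 7 of 16, against 24.0% of all probe sets with arrays centred and 28.8% with quantile normalization repeated. The share over all probe sets thus fell along with the erythroid count. Of the 6 marker lists of other cell types, the mean level was highest in induced 2 for 4 and not for mesoderm or pluripotency. The 12 macrophage genes averaged 7.18 in induced 2 and 6.94 and 6.97 in induced 1 and 3, against 6.87 to 6.98 in control samples. The 10 megakaryocyte genes averaged 6.97 in induced 2 and 6.72 in induced 1 and 3, against 6.69 to 6.77 in control samples. The 12 visceral endoderm genes reached 8.29 in induced 2 and 8.14 to 8.17 in the other induced samples, against 8.02 to 8.14 in control samples. The 15 endothelial genes averaged 7.15 in induced 2 and 7.003 and 7.11 in induced 1 and 3, against 6.92 to 7.14 in control samples. The 11 mesoderm genes were highest in control 3, at 11.21, and induced 2 was the lowest of the induced samples, at 10.56. The 12 pluripotency genes averaged 10.95 to 11.18 in induced samples and 10.62 to 11.42 in control samples, with control 2 the highest. The part of these in the erythroid values was not tested.

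Taken pair by pair, the median difference over the 16 probe sets was -0.092 for replicate number 1, 0.19 for number 2 and -0.12 for number 3. The SD of these 3 medians was 0.17, larger than the median log2 fold change of 0.011. The erythroid probe sets had a median SD over the 6 arrays of 0.19, against 0.12 for all probe sets. The higher median came from the embryonic globin genes and Tfrc, with SDs of 0.17 to 0.95. SDs for Epor, Klf1, Epb42, Gfi1b and Nfe2 lay between 0.074 and 0.14. The SD was larger in control than in induced samples for 8 of the 16.

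**Figure D4:**
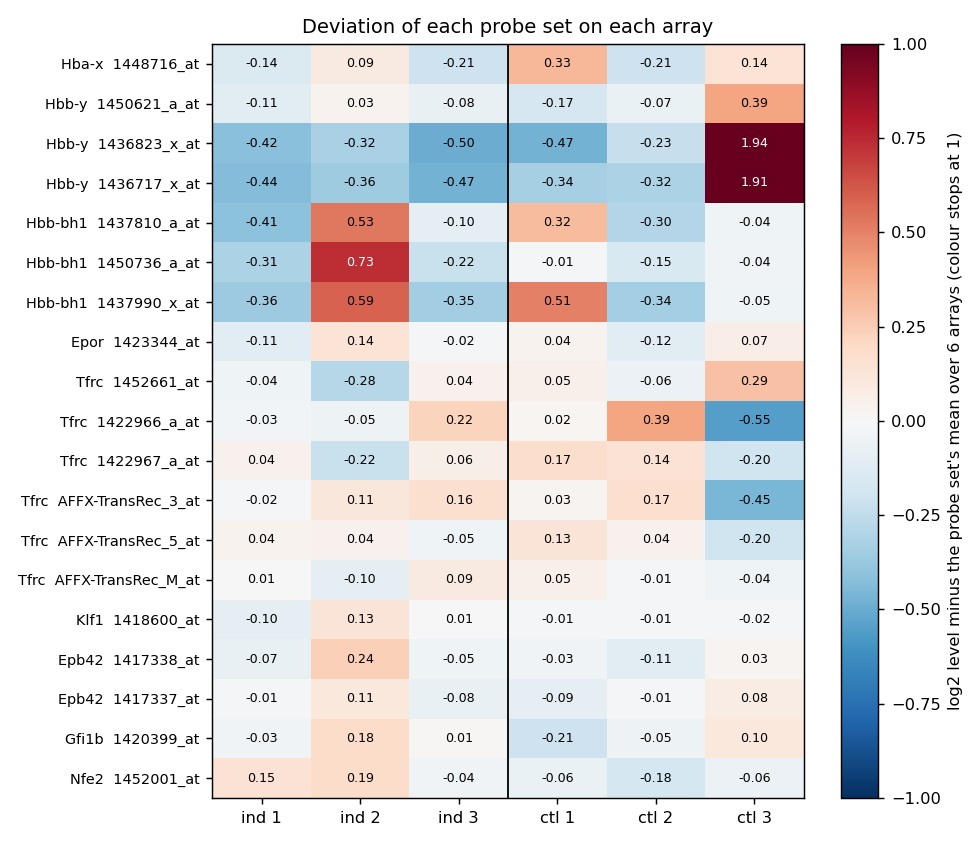
Deviation of each of the 19 probe sets (rows) on each array (columns, induced left of control) from its own mean over the 6 arrays, as log2 values in the cells and as colour, which stops at 1. The cells of control 3 reach 1.94 and 1.91 for the Hbb-y x_at probe sets, and the induced 2 column is positive for all 3 Hbb-bh1 probe sets.

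Flk1-sorted arrays differ in Kdr, so the erythroid genes were set against it over the 6 arrays. With 1 probe set per gene and 18 tests in all, 0 of the 9 genes passed. Tfrc came nearest, with r = 0.70 (exact permutation p = 0.106, adjusted p = 0.95, two-sided, n = 6) and Spearman's rho = 0.89 (exact permutation p = 0.0333, adjusted p = 0.60). Without control 2 and control 3, the arrays with extreme Kdr, r was 0.80 for Tfrc. Over the 6 arrays the most variable Tfrc probe set, 1422966_a_at, went the other way. It gave r = -0.69 (exact permutation p = 0.128, adjusted p = 1.0000) and rho = -0.43. Its r turned to 0.95 without control 2 and control 3, so the negative sign of r depended on those arrays. Hbb-y gave r = 0.52 (exact permutation p = 0.294, adjusted p = 1.0000) and rho = 0.086, and its r turned to -0.45 without those arrays. The smallest p that the 720 orders of 6 arrays allow is 0.002778. After adjustment over 18 tests, a single test at that smallest p would not fall under 0.05. A count of 0 therefore does not show that the genes are unrelated to Kdr.

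Some genes resembled the erythroid genes over the 6 arrays, given as Pearson's r among about 3160 probe sets that had an SD of at least 0.25, with no test. For Hba-x these were the interferon gene Ifna11 at r = 0.89, the nuclear receptor gene Nr4a2 at r = 0.87 and Hbb-bh1 at r = 0.84. For Hbb-y they were Ccnk, Foxp4 and Fscn1 at r = 0.99, 0.97 and 0.96, each highest in control 3. For Hbb-bh1 they were Rbm24, Gsta2 and Tmem132e at r = 0.97, 0.94 and 0.92. Epor came nearest to Sdk2, Rbm24 and Slc2a9, at r = 0.97, 0.94 and 0.90.

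Tfrc on 1452661_at resembled Abhd5, the cyclin gene Ccnd2 and Man1a2, each at r = 0.99, and 57 probe sets exceeded r = 0.95. Klf1 resembled Rarres2, Slc16a8 and Ttll10 most, and Epb42 resembled Polr2e, Eef1d and 1700015G11Rik, at r = 0.98 to 1.00. Gfi1b resembled Oprm1, Ptov1 and Pigu at r = 0.93 to 0.99, and Nfe2 resembled Tshr, Nlrc5 and Camk1d at r = 0.83 to 0.86. Among the 9 genes themselves the closest were Hbb-bh1 with Epor at r = 0.90 and Epor with Epb42 at r = 0.88. Tfrc and Klf1 were the most opposed, at r = -0.57.

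Around these 9 genes, other parts of the red cell programme gave 0 probe sets past an adjusted p of 0.05 in limma. Of 59 probe sets for 23 erythroid transcription factors and cofactors, 31 were higher and 28 lower in induced samples, with a median log2 fold change of 0.0023, and 1 had an unadjusted p under 0.05 (1.69%, against 1.53% of all probe sets). This was Lmo2, a bridging cofactor of the Gata and Tal1 complex, at 9.54, 9.33 and 9.68 in induced samples and 8.58, 8.67 and 8.87 in control samples. Its log2 fold change was 0.81 ± 0.12 (SE), with an unadjusted p of 0.00017 and an adjusted p of 0.9998 in limma. Lmo2 has been studied as an Etv2 target, so it is not independent evidence for the list. Gata1, the master erythroid factor, chosen after its values were seen, read 6.35, 6.495 and 6.41 in induced samples and 6.26, 6.31 and 6.26 in control samples. All induced samples were above all controls, with a log2 fold change of 0.14 ± 0.074 and an adjusted p of 0.9998 in limma. Induced samples lay wholly above control samples in 3 of the 59 probe sets, against 2.72% of all probe sets. The groups overlapped for Tal1 on 1449389_at, with a log2 fold change of 0.17. They also overlapped for Gata2, with 0.13 on 1450333_a_at and 0.0023 on 1428816_a_at.

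Signalling below the erythropoietin receptor was covered by 46 probe sets of 18 genes, of which 30 were higher and 16 lower in induced samples. The median log2 fold change was 0.039, and 3 had an unadjusted p under 0.05 (6.52%, against 1.53% of all probe sets). Jak2, the kinase bound to the receptor, read 8.04, 7.98 and 7.92 in induced samples and 7.75, 7.78 and 7.66 in control samples on 1421065_at, a log2 fold change of 0.25 ± 0.075 (SE). Socs2, a feedback inhibitor of that kinase pathway, read 8.68, 8.57 and 8.51 in induced samples and 8.80, 8.82 and 8.79 in control samples on 1438470_at, a log2 fold change of -0.22 ± 0.076. The groups did not overlap on either of these probe sets, while the adjusted p was 0.9998 for both in limma. The third was another Socs2 probe set, also lower, and the other Jak2 probe set overlapped between the groups.

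Haem synthesis was covered by 37 probe sets of 19 genes, with 17 higher and 20 lower in induced samples and a median of -0.011. Slc25a37, or mitoferrin 1, which carries iron into mitochondria, read 10.44, 10.32 and 10.47 in induced samples, and 10.65, 10.60 and 10.69 in control samples. All induced samples were below all controls, with a log2 fold change of -0.24 ± 0.077 (SE), an unadjusted p of 0.0164 and an adjusted p of 0.9998 in limma. Iron handling, with 46 probe sets of 21 genes, gave 20 higher and 26 lower and a median of -0.015. At an unadjusted p under 0.05 in limma the count was 0, against 1.53% of all probe sets. In a list of this size such a count says little. The brightest iron handling genes were the ferritin heavy chain gene Fth1, with a log2 fold change of -0.015 ± 0.080, and the iron chaperone gene Pcbp1, with -0.040 ± 0.068.

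Red cell membrane and skeleton genes, with 44 probe sets of 20 genes, gave 25 higher and 19 lower in induced samples, with a median of 0.028. Here too 0 had an unadjusted p under 0.05 in limma, against 1.53% of all probe sets, which says little for 44 probe sets. Cd24a, a surface protein of early blood cells, averaged 13.52 ± 0.096 in induced and 13.41 ± 0.14 in control samples (SD, n = 3 each). Slc2a1, the glucose transporter of many dividing cells, averaged 12.80 ± 0.065 in induced and 12.90 ± 0.21 in control samples. Slc4a1, the anion exchanger that protein 4.2 binds, chosen after its values were seen, read 6.48, 6.90 and 6.56 in induced samples and 6.55, 6.63 and 6.68 in control samples on 1416464_at. As with Epb42, induced 2 was its highest array.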

How the data were processed

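The deposited values are log2 expression levels per probe set, made by the authors with RMA, per the submitters' processing notes. No source used here gives the RMA version, the background step or detection calls. Scanner files were not used, and precision is limited by having 3 arrays per group. Gene symbols came from GEO's platform annotation, and all 9 genes were found by Entrez identifier in RefSeq (GRCm38.p6). Of the tested probe sets, 34945 had 1 symbol, 932 had several and 9160 had none.

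Groups came from the titles. The 45037 probe sets other than 64 Affymetrix controls were fitted with limma (version 3.58.1, R 4.3.3; lmFit, then eBayes; two-sided), and p-values were adjusted by Benjamini-Hochberg over all of them, with a threshold of 0.05. An exact permutation test of 3 samples against 3 cannot go below p = 0.1, so none was run on group differences. Each log2 fold change is induced minus control, with the standard error of the fit and 95% intervals. The fit was tested on simulated data. Dim probe sets were kept.

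Replicate numbers are shared by the titles of both groups. Deviations from group means correlated over probe sets at r = 0.25, 0.17 and 0.23 for numbers 1, 2 and 3, all above 0.1, so the numbers were treated as pairs in the block fit. Some unmatched numbers correlated as closely, with r = 0.21 for induced 3 and control 1 and r = 0.18 for induced 1 and control 2. The pairing comes from the data and the shared numbers, as no label names a shared culture.

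The 9 genes, the gene lists and the tests were chosen with earlier results of these data known. Named genes are the 9 with every probe set, Etv2 and Kdr as checks, up to 4 genes per list with an unadjusted p under 0.05, or else the 2 brightest, and the 3 genes most like each of the 9. The motif words were chosen with the sequences in view. The alternatives tried were another normalization, centring, dim and single probe sets, the variance model, array weights, the block, and leaving out arrays. All fits were run in R, and counts, correlations and figures were made in Python 3.11.15.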

Additional observations from a re-analysis of the deposited data

How the results depend on the processing

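The number of erythroid probe sets called was 0 under all alternatives run, and 0 genes passed the relation to Kdr with the most variable probe set or with centred arrays. With so few arrays the relation to Kdr could hardly pass, so its count of 0 says little. The number of all probe sets called, 1 as reported, was 0 with arrays centred, 0 with the replicate block, and 0 to 0 when single samples or both samples of a number were left out. The median log2 fold change of the erythroid probe sets, 0.011 as reported, was -0.0068 with arrays centred, -0.057 with array weights and 0.011 with the block, and lay between -0.14 and 0.077 with samples left out. With the Affymetrix control probe sets kept in the fit, an alternative chosen after seeing the data, 0 erythroid probe sets were called. The replicate block changed no other call.

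Of 254 values, each a probe set under an alternative, 218 kept their direction and 36 reversed, and 6 probe sets never reversed. The 218 include values that could not reverse. The block, the variance model, the leaving out of dim or further probe sets and the added control probe sets leave each log2 fold change unchanged. With arrays centred the reversed values were -0.0045 for Epb42 on 1417337_at, -0.0091 for Epor and -0.0045 for Hbb-bh1 on 1437810_a_at. Quantile normalization gave -0.0014 for Hbb-bh1 on 1437810_a_at. Array weights gave -0.0488 for Epor, -0.0215 for Klf1, and -0.278 and -0.133 for Hbb-bh1 on 1437810_a_at and 1450736_a_at. With samples left out, the ranges that crossed 0 were -0.037 to 0.097 for Epb42 on 1417337_at and -0.056 to 0.156 on 1417338_at, -0.11 to 0.085 for Epor, and -0.033 to 0.084 for Klf1. For Hbb-bh1 they were -0.39 to 0.38 on 1437810_a_at, -0.59 to 0.31 on 1437990_x_at and -0.24 to 0.35 on 1450736_a_at. They were -0.21 to 0.080 for Hbb-y on 1450621_a_at, and -0.25 to 0.36 and -0.25 to 0.067 for Tfrc on 1422966_a_at and 1422967_a_at. The cause of these reversals was not tested. The Hbb-y x_at values ranged from -1.27 to -0.021 on 1436823_x_at and from -1.24 to -0.068 on 1436717_x_at. The other ranges were -0.41 to -0.023 for Hba-x, 0.026 to 0.20 for Gfi1b, 0.11 to 0.29 for Nfe2 and -0.26 to -0.091 for Tfrc on 1452661_at. Array weights gave -0.30 for Hba-x.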
